A study of Mus musculus with 3 samples.

Results

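Genes for the proteins of the spliceosome and for the SR proteins, its regulators, were followed in mouse blastocysts that were held in delayed implantation and then reactivated. The members were the genes whose symbols begin with Srsf, Snrp followed by a letter from a to g, Sf3a, Sf3b, Lsm, Prpf or U2af, with names ending in -ps left out. They were 59 of the 31510 genes in the deposited tables. The symbol column of the tables holds older names, several names or no name for some of them. Searched from the start of each entry, it gave 31 members and no Srsf gene. Entries that list another name before the symbol, such as those of Snrpd1 and Snrpf, were missed. Symbols were therefore taken from GENCODE M21 by the Ensembl ID of each gene. Lsm5 and the parent gene Snrpe were not analysed here. Snrpert, which matches by name, is annotated in M21 as a processed pseudogene that arose from Snrpe.

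The blastocysts came from CD-1 mothers, 2 months old, whose ovaries were removed on day 4 of pregnancy and who received 2 mg of progesterone per mouse daily on days 5 to 7. Both treatments were common to all 3 groups and produce an experimental form of the delay. Dormant blastocysts were flushed from the uterus on day 8. The other mothers received estradiol (E2), which ends the delay, on day 7, and their blastocysts were collected after 6 h (reactivating) or 12 h (reactivated). Each state was 1 library of rRNA-depleted total RNA from more than 3000 pooled blastocysts, read as 50 bp single-end reads on the SOLiD platform. With 1 library per state there is no replicate, so no SD and no p-value can be given. State and hour of collection cannot be told apart.

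The spliceosome removes introns from newly made RNA. It is built from small nuclear RNAs, each carried in a ring of Sm proteins (or, for U6, of LSm proteins), together with U1- and U2-specific proteins, the SF3a and SF3b complexes that hold the branch point, the U2AF dimer that reads the end of the intron, and the PRPF proteins of the later complexes. SR proteins bind exons, recruit these parts and also carry mature RNA out of the nucleus. Several SR genes are known for conserved exons with early stop codons, through which high SR protein lowers its own mRNA.

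The 3 libraries held 9298675, 10364607 and 12941447 reads in exons in the order dormant, reactivating and reactivated, the order used for every set of 3 values here. Levels are the authors' RPKM, the exon reads of a gene scaled to its exon length and to the total of the library. Introns held 27.7%, 25.1% and 23.5% of the reads in exons and introns of all genes. All 9 blastocyst markers (Cdx2, Krt8, Krt18, Gata3, Pou5f1, Nanog, Sox2, Gata6 and Sox17) had at least 1 RPKM in each library, with summed levels of 1212, 1252 and 930 RPKM, of which Krt18 made up 807, 834 and 624. The trophectoderm factors Cdx2 (113, 95.8 and 34.8 RPKM) and Gata3 (48.0, 42.5 and 21.1) were lowest in the reactivated library, while Pou5f1 of the inner cell mass was at 87.1, 125 and 124 RPKM. Of 6 listed markers of uterine epithelium 4 reached 1 RPKM in each library, and their sum was 72.3, 76.0 and 28.7 RPKM, most of it Wfdc2 and Lif. Immune cell markers summed to 21.5, 15.5 and 6.57 RPKM, with Tyrobp at 0 in the reactivated library. None of the 4 stromal or 5 red blood cell markers reached 1 RPKM, and Hba-a1 and Hba-a2 were at 0. The part of these cells and shifts in the values below was not tested. In pools of whole blastocysts, fewer cells of a type and less RNA per cell cannot be told apart.

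Together the members took 0.424% of exon reads in the dormant library (95% Wilson interval 0.420 to 0.429%), 0.450% (0.446 to 0.454%) in the reactivating and 0.522% (0.518 to 0.526%) in the reactivated library. Their summed level was 1091, 1198 and 1444 RPKM and their median 12.9, 13.6 and 16.4 RPKM. At least 1 RPKM was reached by 57, 55 and 56 of the 59. Srsf12, a tissue-restricted SR protein, and Lsm7, a subunit of the LSm ring, stayed under it in every library. The highest dormant levels were those of Srsf6 (107 RPKM), Srsf2 (80.5), Prpf8 (67.1) and Snrpb (54.1). Every interval covers counting error only: the reads carry no molecular identifiers and may be copies of 1 molecule.

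A member was counted as having risen or fallen when log2((RPKM + 1)/(RPKM + 1)) was at least 1 in size (2 times) and the higher of both libraries had at least 1 RPKM. On this scale the change of low genes is understated. At 6 h after E2, 2 of the 57 members tested had risen against dormant, Snrpd1 and Snrpf, beside 2.68% of all genes tested and 0.683% of the protein-coding ones. None had fallen, beside 3.07% and 0.291%. The median difference was 0.10 over the members and 0.06 over all genes tested. At 12 h, 6 of 57 members had risen against dormant, namely Lsm3, Snrpd1, Snrpf, Srsf11, Srsf3 and Srsf7, beside 5.27% of all genes and 3.63% of protein-coding genes. Lsm14b and Snrpg had fallen, beside 7.66% and 5.53%. The counts of members called are small, and the whole list lay further from all genes in its median: 0.33 for the members against -0.07 for all genes tested. A value above 0 was found in 43 of 57 members (75.4%) and in 45.1% of all genes. Just outside the threshold at 12 h stood Snrpa1 (0.97), Sf3b6 (0.94), Srsf1 (0.91) and Srsf10 (0.90), and just inside it Srsf11 (1.07). Between 6 h and 12 h, 5 of 56 members tested rose (Lsm6, Snrpb2, Srsf3, Srsf7 and U2af1), beside 3.82% of all and 2.44% of protein-coding genes. Lsm14b and Prpf40b fell, beside 7.63% and 6.6%. The median was 0.27 over the members and -0.13 over all genes. The comparisons share libraries and are not independent of each other.

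These counts moved with the scaling of the libraries. With median-ratio scaling, 9 members had risen and 0 had fallen at 12 h against dormant, and with upper-quartile scaling 14 and 0. Over all genes, the higher share of the calls went from 40.7% to 49.7% and 63.0% in the same order. Upper-quartile scaling moved the median of all genes from -0.07 to 0.14, and the members' median stood 0.40 above that of all genes as deposited, 0.41 above it with median-ratio scaling and 0.42 above it with upper-quartile scaling.

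The proteins of the Sm ring close around each of the U1, U2, U4 and U5 RNAs. The 7 members listed for it include the pseudogene Snrpert and not its parent Snrpe. Of these 7, 2 rose and 1 fell at 12 h. Over all genes tested, 5.27% rose and 7.66% fell. Snrpf (ENSMUSG00000020018, GRCm38 chromosome 10, 93583029 to 93589706, minus strand), the SmF subunit, had 18, 85 and 139 exon reads, or 1.65 RPKM (95% Poisson interval 0.975 to 2.60), 6.99 (5.58 to 8.65) and 9.45 RPKM (7.94 to 11.2). Its log2 difference from dormant was 1.59 at 6 h and 1.98 at 12 h. Snrpd1 (ENSMUSG00000002477), the SmD1 subunit, had 27, 103 and 158 exon reads, or 3.78 (2.49 to 5.50), 13.0 (10.6 to 15.7) and 16.4 RPKM (14.0 to 19.2), with differences of 1.55 and 1.87. In both genes the dormant library was low, the libraries after E2 were high, and the intervals of the 2 later libraries overlapped. Both had most of their rise by 6 h, and from 6 h to 12 h they differed by 0.39 and 0.32, under the threshold.

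Snrpg, the SmG subunit, went the other way on very few reads. It had 10, 5 and 3 exon reads, or 1.86, 0.840 and 0.410 RPKM, and a ratio of exon reads, scaled to the library totals, of 0.223 at 12 h to dormant (95% binomial interval 0.0395 to 0.867). Its log2 difference of -1.02 was -0.99 with median-ratio scaling, -0.92 with upper-quartile scaling and -0.75 with CPM, so that it no longer passed. Its introns held 68, 61 and 127 reads in the same libraries. Snrpd3, the SmD3 subunit, was at 21.7 (19.5 to 24.2), 25.3 (23.0 to 27.7) and 39.1 RPKM (36.4 to 41.8), a difference of 0.82 at 12 h that did not pass. Snrpb, which encodes SmB, was the most abundant of the ring at 54.1, 61.8 and 67.6 RPKM. Snrpd2 was at 3.77, 2.74 and 4.75 RPKM on 26, 21 and 44 reads. Snrpert was at 14.0, 11.9 and 17.8 RPKM. Of its 50-base windows, 55.7% also occur in Snrpe or Gm43124, and reads from these windows cannot be told apart by sequence.

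The proteins of the ring are needed in equal numbers, yet their RPKM in the dormant library ran from 1.65 for Snrpf to 54.1 for Snrpb. How much of the coding sequence of each gene also occurs elsewhere differed as widely. Every window of 50 bases, the length of a read, in the coding sequence was searched for in the transcripts of all other genes of GENCODE M21. For Snrpert the whole transcript was used. For the other members, untranslated exon bases, which also count in RPKM, were not searched. Lsm3, for example, has 309 coding bases and 631 exon bases. All 182 windows of Snrpg also occur in 3 annotated pseudogenes, AC134591.2, Gm6704 and Gm8186. In Snrpf this holds for 173 of 212 windows (81.6%), with copies in Gm13092, Gm33178 and Gm6616. A read from such a window has more than 1 exact match, and what the authors' counting did with it is not stated in the labels or headers. These coding sequences are shown with that of Lsm3, a short gene with no shared coding window, to set members with and without such windows side by side. They run 5′ to 3′ from the start codon, Lsm3 for the first 300 of its 309 coding bases, and capitals mark bases that lie in a shared window. Snrpg spans chr6:86371583-86378783 on the plus strand of GRCm38, Snrpf chr10:93583464-93589541 on the minus strand, and Lsm3 chr6:91516058-91522321 on the plus strand.
Snrpg: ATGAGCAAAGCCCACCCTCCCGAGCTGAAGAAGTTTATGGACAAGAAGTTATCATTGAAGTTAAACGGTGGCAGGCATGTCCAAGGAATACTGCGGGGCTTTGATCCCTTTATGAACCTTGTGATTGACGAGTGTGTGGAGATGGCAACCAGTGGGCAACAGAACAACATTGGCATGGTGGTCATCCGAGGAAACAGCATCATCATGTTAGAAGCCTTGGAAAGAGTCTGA
Snrpf: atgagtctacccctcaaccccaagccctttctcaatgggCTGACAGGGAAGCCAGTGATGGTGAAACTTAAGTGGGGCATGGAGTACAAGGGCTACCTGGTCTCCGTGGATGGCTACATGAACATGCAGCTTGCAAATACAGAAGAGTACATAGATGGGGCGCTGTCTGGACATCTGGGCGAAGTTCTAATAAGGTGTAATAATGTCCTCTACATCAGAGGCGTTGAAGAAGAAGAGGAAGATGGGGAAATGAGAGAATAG
Lsm3: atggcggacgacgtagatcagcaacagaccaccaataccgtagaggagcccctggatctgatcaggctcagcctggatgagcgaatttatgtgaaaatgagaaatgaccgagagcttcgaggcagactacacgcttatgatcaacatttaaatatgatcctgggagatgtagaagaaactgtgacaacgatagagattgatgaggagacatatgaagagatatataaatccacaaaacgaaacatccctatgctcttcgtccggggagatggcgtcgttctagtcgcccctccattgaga
In Snrpg all 231 coding bases are capitals, in Snrpf 222 of 261 (85.1%), and in Lsm3 none. A 50-base read inside the Snrpg coding sequence thus cannot be assigned to it by sequence alone, whereas among annotated transcripts any such read inside the Lsm3 sequence can.

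Lsm3 was the clearest rise among the LSm genes, and Lsm6 rose between 6 h and 12 h. The ring of LSm2 to LSm8 binds U6 RNA in the nucleus, and with LSm1 in place of LSm8 the ring starts mRNA decay in the cytoplasm. Lsm3 (ENSMUSG00000034192, chromosome 6, 91515928 to 91522625, plus strand) had 252, 475 and 893 exon reads, or 28.3 RPKM (24.9 to 32.0), 48.0 (43.8 to 52.5) and 74.5 RPKM (69.7 to 79.6). The 3 intervals did not overlap, and the log2 difference from dormant was 0.74 at 6 h and 1.37 at 12 h. Of its exon reads 80, 177 and 334 crossed exon junctions. Lsm6 was at 2.25 (1.75 to 2.86), 1.72 (1.31 to 2.23) and 4.70 RPKM (4.05 to 5.42), so that the reactivated library alone was high, with a difference of 1.07 from reactivating and 0.81 from dormant. The ring's other members did not pass in any comparison. The nuclear subunit Lsm8 was at 24.5, 26.4 and 33.6 RPKM, Lsm2 at 11.3, 10.9 and 14.4, and Lsm4 at 22.9, 25.9 and 19.3 RPKM. The cytoplasmic Lsm1 had 110, 188 and 211 exon reads, from libraries of unequal size. Its log2 difference from dormant was 0.55 at 6 h and 0.45 at 12 h, and from 6 h to 12 h it was -0.099. Its dormant RPKM interval (5.34 to 7.83) lay below the reactivating (8.62 to 11.5) and reactivated ones (8.06 to 10.6). Lsm7 had 0, 0 and 2 exon reads beside 26, 38 and 23 intron reads. Like Snrpg it has every coding window in annotated pseudogenes, Gm10146 and Gm13182. With 3 reads as the limit that a count of 0 allows, its upper limit over 450 exon bases was 0.472 RPKM (dormant) and 0.425 RPKM (reactivating).

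The LSm proteins outside that ring did not share a direction. Lsm14b (ENSMUSG00000039108, chromosome 2, 180024987 to 180035465, plus strand), which like Lsm14a is a protein of cytoplasmic granules that hold back translation, had 426, 496 and 268 exon reads, or 16.0 (14.5 to 17.6), 16.8 (15.3 to 18.3) and 7.49 RPKM (6.62 to 8.45). It fell by 1.003 from dormant and by 1.07 from reactivating on the log2 scale. Both calls were lost with another scaling: from dormant the difference was -0.92 with median-ratio and -0.78 with upper-quartile scaling, and from reactivating -0.92 and -0.80. Its intron reads, scaled in the same way, were lower as well, with a ratio of 0.502 (95% binomial interval 0.371 to 0.677) at 12 h to dormant, beside 0.468 (0.400 to 0.546) for exon reads. Lsm14a stood at 35.0, 32.4 and 37.5 RPKM. Lsm10 and Lsm11, which replace SmD1 and SmD2 in the U7 particle that processes histone mRNA, were highest at 6 h, with 8.86, 10.6 and 6.47 RPKM and 2.71, 4.10 and 2.15 RPKM, and neither passed. Lsm12 was at 17.7, 21.8 and 25.3 RPKM.

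Among the proteins specific to U1 and U2 particles, the U2 pair stood apart in the reactivated library, while the intervals of the U1 pair overlapped between the dormant and reactivated libraries. Snrpa1, which encodes the leucine-rich protein of the pair, was at 18.8 (16.7 to 21.2), 21.4 (19.2 to 23.7) and 37.8 RPKM (35.1 to 40.6), a difference of 0.97 at 12 h that missed the threshold. Its partner Snrpb2, which binds the RNA itself, was at 10.8 (9.09 to 12.7), 8.09 (6.70 to 9.67) and 17.99 RPKM (16.1 to 20.1), and rose by 1.06 between 6 h and 12 h. The U1 protein genes Snrpa and Snrpc were at 10.6 (9.18 to 12.1), 12.6 (11.1 to 14.2) and 10.6 RPKM (9.36 to 11.9) and at 2.35 (1.51 to 3.50), 0.970 (0.484 to 1.74) and 2.55 RPKM (1.78 to 3.55), the latter on 24, 11 and 35 reads. From 6 h to 12 h the intervals of Snrpc did not overlap. Its difference was 0.85, under the threshold, and it passed with a pseudocount of 0.1.

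No gene of the SF3a and SF3b complexes passed the size rule in any comparison. A higher value at 12 h than in dormant was found in 7 of the 9, beside 45.1% of all genes, with a median difference of 0.49. Sf3b1, the large scaffold that grips the branch point, was the most abundant, with 3748, 4560 and 7351 exon reads and 42.9 (41.5 to 44.3), 47.0 (45.6 to 48.3) and 62.6 RPKM (61.1 to 64.0). Sf3b6, the subunit next to the branch point adenosine, was at 12.9, 16.5 and 25.7 RPKM, and Sf3b3 at 38.0, 37.1 and 56.8 RPKM. Sf3a2 and Sf3b2 had values below dormant. Sf3b2 was at 41.5 (39.7 to 43.4), 32.0 (30.5 to 33.6) and 28.0 RPKM (26.7 to 29.4), a difference of -0.55 at 12 h. The genes for the proteins of 1 complex, SF3b, thus had RPKM differences from -0.55 to 0.94 on the log2 scale. Sf3a1, Sf3a2 and Sf3a3 were at 15.9, 14.2 and 18.04 RPKM, 13.6, 13.6 and 11.2 RPKM, and 20.7, 26.5 and 29.4 RPKM. Of the U2AF genes, the large subunit U2af2 was at 12.6, 14.9 and 14.3 RPKM. The small subunit U2af1 had 27, 15 and 55 exon reads, or 2.11, 1.05 and 3.19 RPKM, and rose by 1.03 between 6 h and 12 h. Its paralog U2af1l4 was at 5.26, 5.77 and 3.85 RPKM.

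SR protein genes divided into a set that stood higher at 12 h and a set that did not. Of the 10 measured at 1 RPKM or more, 3 rose against dormant, none fell, and 7 had a value above 0, with a median difference of 0.72. Over all genes tested, 5.27% rose, 7.66% fell and 45.1% had a value above 0. Srsf7 (ENSMUSG00000024097, chromosome 17, 80200080 to 80207307, minus strand), a splicing activator that also serves mRNA export, had 496, 593 and 1660 exon reads, or 30.1 (27.5 to 32.9), 32.4 (29.8 to 35.1) and 74.9 RPKM (71.4 to 78.6). Srsf3 (ENSMUSG00000071172, chromosome 17, 29032628 to 29043373, plus strand), its closest relative in the family, had 134, 168 and 442 exon reads, or 7.15 (5.99 to 8.46), 8.06 (6.89 to 9.38) and 17.5 RPKM (15.9 to 19.2). In both genes the dormant and reactivating libraries overlapped and the reactivated library alone was high, with differences of 1.29 and 1.18 from dormant and 1.19 and 1.03 from reactivating. Srsf11 (ENSMUSG00000055436, chromosome 3, 158010473 to 158036639, minus strand), which joins the U1 and U2AF complexes across an exon, had another course. It was at 18.2 (17.1 to 19.3), 35.5 (34.1 to 37.0) and 39.3 RPKM (38.0 to 40.7), so that dormant alone was low, with a difference of 0.93 at 6 h, just under the threshold, and 1.07 at 12 h.

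Srsf1 and Srsf2, the founding members of the family, were also highest in the reactivated library without passing. Srsf1 was at 24.1 (23.0 to 25.2), 26.1 (24.98 to 27.2) and 46.1 RPKM (44.8 to 47.5), a difference of 0.91. Srsf2 was at 80.5 (77.1 to 84.0), 77.8 (74.6 to 81.0) and 117 RPKM (113 to 121), a difference of 0.53. Srsf10, which turns from activator to repressor when dephosphorylated, was at 1.89, 1.76 and 4.41 RPKM. The rest of the family showed no such step. Srsf6 was at 107 (102 to 111), 111 (107 to 115) and 95.5 RPKM (92.1 to 99.0), Srsf4 at 19.0, 22.8 and 16.2, and Srsf5 at 10.2, 10.6 and 7.63 RPKM. Srsf9, known to repress as well as activate splice sites, was at 24.7, 35.5 and 32.0 RPKM, and Srsf12 had 5, 7 and 4 exon reads. Under upper-quartile scaling Srsf1 and Srsf10 passed the size rule at 12 h too.

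The promoters of Srsf3 and Srsf7 are shown because these genes shared the late rise and lie on the same chromosome. Each is the 250 bases before the RefSeq start on GRCm38.p6, 5′ to 3′ in the direction of the gene, at chr17:29032410-29032659 (plus strand) and chr17:80207306-80207555 (minus strand). Capitals mark exact matches, on either strand, to the CCAAT box (CCAAT) or the TATA box (TATAAA) in Srsf3, and to the ETS motif (CCGGAAG) or the GC box (GGGCGG) in Srsf7.
Srsf3: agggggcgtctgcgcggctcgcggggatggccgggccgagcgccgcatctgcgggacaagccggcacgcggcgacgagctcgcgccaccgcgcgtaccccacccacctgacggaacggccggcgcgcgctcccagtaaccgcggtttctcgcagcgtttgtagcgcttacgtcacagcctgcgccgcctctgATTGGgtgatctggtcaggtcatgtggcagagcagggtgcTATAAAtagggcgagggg
Srsf7: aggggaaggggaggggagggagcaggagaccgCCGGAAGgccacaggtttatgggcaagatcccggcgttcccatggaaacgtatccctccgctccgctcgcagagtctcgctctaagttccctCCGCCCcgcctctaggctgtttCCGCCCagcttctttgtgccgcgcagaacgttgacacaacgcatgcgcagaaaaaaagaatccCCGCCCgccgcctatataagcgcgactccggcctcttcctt
The windows hold matches to different motifs, 2 in Srsf3 and 4 in Srsf7, and a match is a description of the letters only. Variants of a motif were not searched for, such as the letters tatataag near the end of the Srsf7 window. Over the 300-base windows from 250 bases before to 50 after the start, which RefSeq gave for 48 of the 59 members, the GC box occurred in 34 (70.8%), against 48.2% of 16521 gene promoters. The ETS motif occurred in 16 (33.3%, against 12.3%), the CCAAT box in 20 (41.7%, against 38.8%), and the E-box CACGTG in 4 (8.33%, against 8.09%). The TATA box occurred in 4 (8.33%, against 12.9%), among them Srsf2 and Srsf3. Of the 11 SR promoters 10 held the GC box, and the exception was Srsf3. The NRF1 motif occurred in none (1.38% of all promoters) and the YY1 motif in 1, Sf3a1 (1.03%). Each motif was searched on both strands without regard to the others, so that matches may overlap.

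In the SR genes that rose, exon reads increased without a matching increase in intron reads. Intron share here is intron reads as a percentage of exon plus intron reads, and it was called lower or higher where the 95% Wilson intervals of 2 libraries did not overlap and both held at least 50 such reads. Srsf7 had 398, 499 and 482 intron reads, and its intron share was 44.5% (41.3 to 47.8%), 45.7% (42.8 to 48.7%) and 22.5% (20.8 to 24.3%). The ratio of its scaled intron reads, reactivated to dormant, was 0.901 (95% binomial interval 0.787 to 1.03), against 2.49 (2.25 to 2.76) for its exon reads. Srsf3 had 496, 563 and 625 intron reads and an intron share of 78.7% (75.4 to 81.7%), 77.0% (73.8 to 79.9%) and 58.6% (55.6 to 61.5%), with ratios of 0.937 (0.832 to 1.06) for intron and 2.45 (2.02 to 2.999) for exon reads. In both genes, then, the rise lay in exon reads, and the intervals of the intron ratios included 1. Srsf11 had the lower share already at 6 h, with 30.9%, 17.8% and 18.5%. Srsf2 was highest at 6 h, with 15.0%, 19.9% and 9.16%, and these 3 intervals did not overlap.

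**Figure D1:**
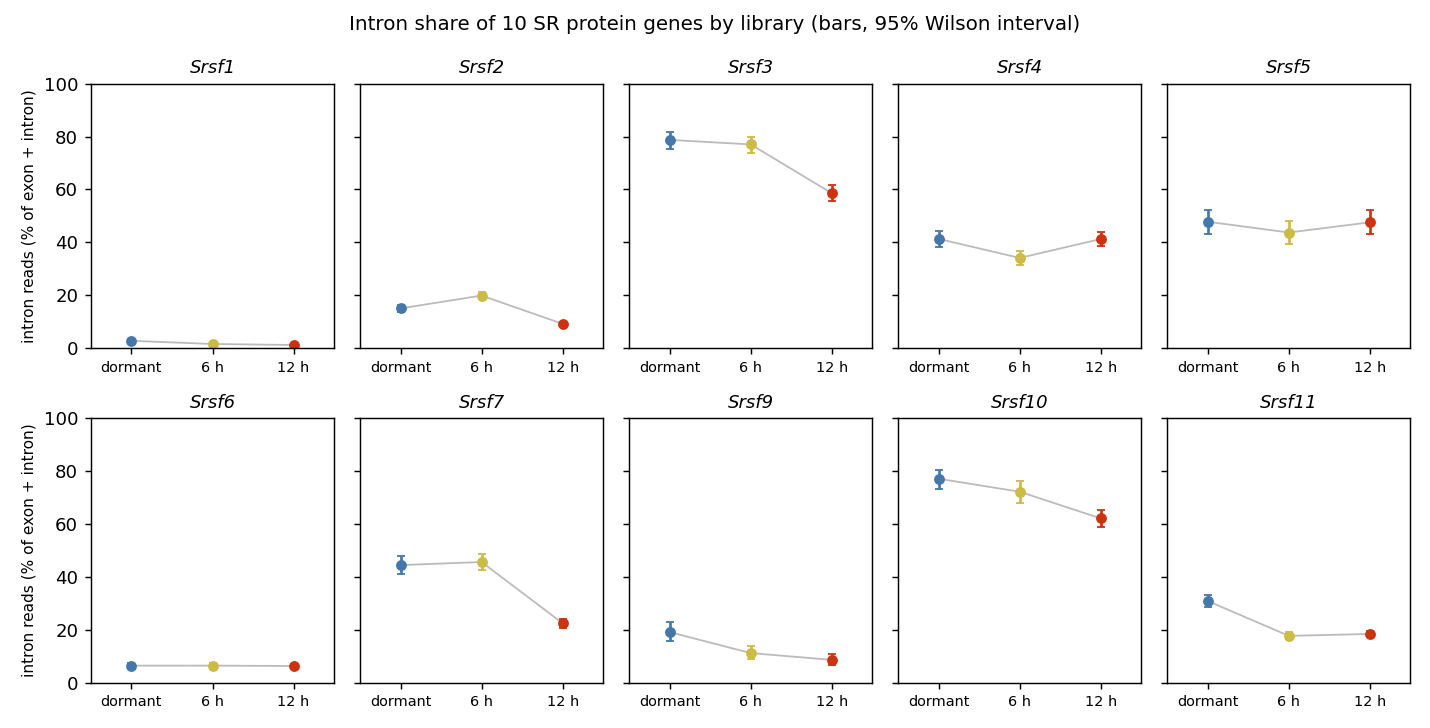
Intron reads as a percentage of exon plus intron reads (vertical axis) for 10 SR protein genes in the dormant library and 6 h and 12 h after E2. Points are single libraries and bars are 95% Wilson intervals for counting error. Srsf3 and Srsf7 are level from dormant to 6 h and lower at 12 h (58.6% and 22.5%), Srsf11 is lower from 6 h on, and Srsf6 lies at 6.37 to 6.52% throughout.

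Of the 10 SR genes in that plot, 7 had a lower intron share at 12 h than in dormant: Srsf1, Srsf2, Srsf3, Srsf7, Srsf9, Srsf10 and Srsf11. None had a higher one. Over all genes tested, 19.4% were lower and 10.5% higher, and genes with more reads have narrower intervals and are called more readily. Srsf10 went from 77.2% to 72.3% and 62.2%, Srsf9 from 19.2% to 11.3% and 8.69%, and Srsf1 from 2.77% to 1.56% and 1.18%. Srsf4 (41.3%, 34.1% and 41.3%), Srsf5 (47.8%, 43.7% and 47.6%) and Srsf6 (6.51%, 6.52% and 6.37%) ended where they began, and in them the ratios of intron and exon reads were close, at 0.852 and 0.853, 0.744 and 0.750, and 0.876 and 0.896. The 7 SR genes with a lower intron share are also the 7 whose RPKM was above dormant at 12 h. A share of this kind falls when exon reads rise with no change in intron reads, so the 2 readouts use the same exon counts and are not independent.

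Over all members, 20 of 54 had a lower intron share at 12 h than in dormant (37.0%), beside 19.4% of all genes tested by the same rule, and 4 had a higher one (7.41%), beside 10.5%. At 6 h the shares were lower in 14 of 54 and higher in 3, beside 13.7% and 6.67% of all genes. Between 6 h and 12 h they were lower in 11 and higher in 5, beside 13.8% and 12.2%. The median intron share of these members was 28.5%, 21.4% and 22.4%, and that of 10462 genes with as many reads 29.1%, 27.6% and 27.9%. Outside the SR family, the lower shares at 12 h included Snrpd3 (39.3% to 21.9%), Snrpa1 (32.8% to 17.99%), Sf3b1 (15.2% to 10.3%), Lsm3 (19.7% to 11.6%), Snrpf (79.8% to 48.3%) and Snrpd1 (73.3% to 47.0%). The higher ones were Sf3b2 (9.57% to 14.8%), Prpf40b (31.5% to 47.4%), Sf3b3 and Snrpg. Reads across exon junctions, which are part of the exon reads, made up a median of 20.5%, 18.4% and 18.4% of the exon reads of 48 members, and 14.7%, 14.6% and 14.6% over 8712 genes. Reads on the opposite strand had medians of 0.640%, 0.629% and 1.12% of a member's reads.

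**Figure D2:**
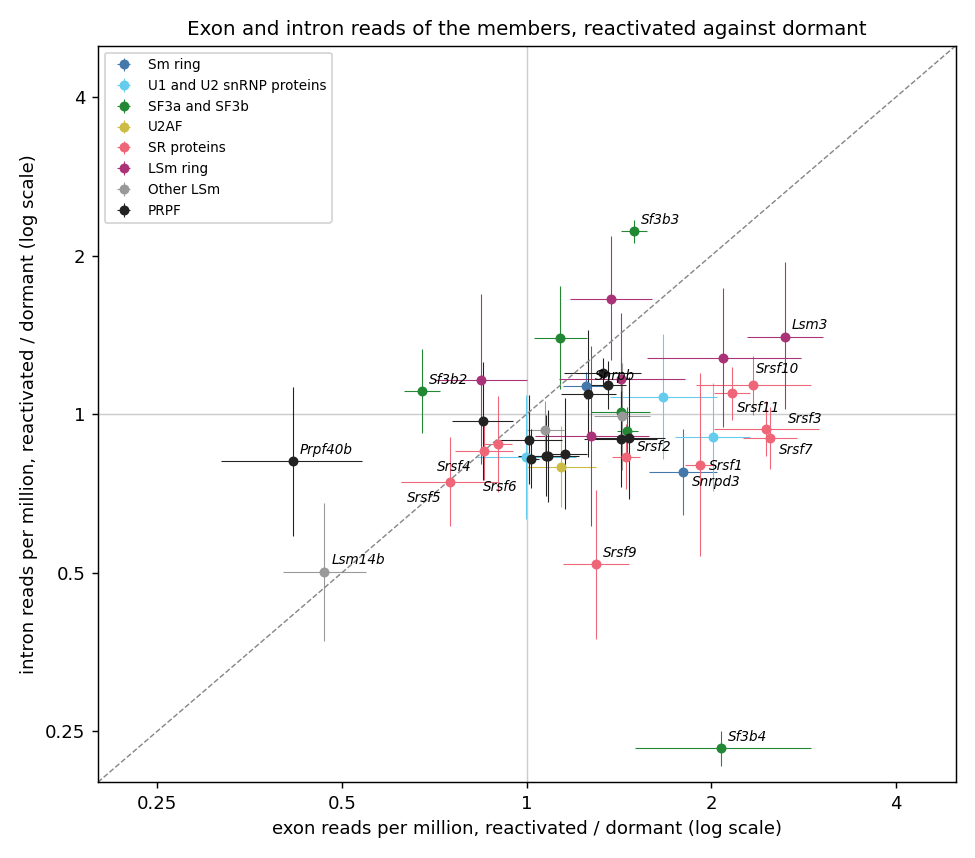
Ratio of exon reads (horizontal axis) and of intron reads (vertical axis), both scaled to the library totals, reactivated to dormant, for the 43 members with at least 50 exon reads and 50 intron reads in both libraries, on log scales, with colours for role. Bars are 95% binomial intervals for counting error, and on the dashed line both ratios are equal. Below the line lie 35 of the 43, with median ratios of 1.33 for exon and 0.907 for intron reads. A point above the line has a higher intron share at 12 h. That held for 44.7% of all genes with at least 50 exon plus intron reads in both libraries, and for 15 of 54 such members.

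Small RNA genes inside introns held most of the intron reads of 2 members. Sf3b3 (chromosome 8, 110810239 to 110846787) hosts the snoRNAs Snord111 and Gm22193 on its own strand, which have rows of their own with 944, 1492 and 3733 and with 347, 506 and 1413 reads. Its introns held 2037, 2643 and 6091 reads, an intron share of 45.6%, 50.1% and 55.5% that was called higher. Less the snoRNA reads the share was 23.5%, 19.7% and 16.2%, and the call turned to lower. Sf3b4 hosts the snoRNA Gm22027, with 2901, 624 and 868 reads of the 2941, 652 and 917 in its introns. Without them the share of Sf3b4 went from 98.3%, 89.8% and 86.3% to 43.5%, 27.5% and 25.3%, and it was no longer called at 6 h. This subtraction assumes that the same reads were counted in both rows, and it was chosen after the data were seen. In the plot of exon against intron ratios Sf3b4 is the lowest point, with an intron ratio of 0.232 before subtraction (0.215 to 0.2498).

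PRPF genes, which encode proteins of the U4/U6.U5 particle and of the steps that follow, moved by less than the size rule asks at 12 h against dormant, from -0.87 for Prpf40b to 0.83 for Prpf31. None of the 13 rose or fell in that comparison, 11 of 13 had a value above 0, beside 45.1% of all genes, and the median difference was 0.20. Prpf8, the protein that forms the catalytic centre, had 7085, 7983 and 9674 exon reads and 67.1 (65.5 to 68.6), 68.0 (66.5 to 69.5) and 68.1 RPKM (66.8 to 69.5), with intervals that all overlapped. Prpf31 was at 5.97 (5.32 to 6.67), 7.67 (6.97 to 8.42) and 11.4 RPKM (10.6 to 12.2), a difference of 0.83. Prpf40b, a U1-associated protein, was at 3.47 (2.96 to 4.04), 3.96 (3.44 to 4.54) and 1.44 RPKM (1.16 to 1.77), and fell by 1.02 between 6 h and 12 h. This call was lost with median-ratio scaling (-0.92), with upper-quartile scaling (-0.82) and at a minimum of 5 RPKM, which it never reached. Against dormant it was at -0.87, and at -1.21 with CPM and with a pseudocount of 0.1. The ubiquitin ligase Prpf19 was at 30.4, 31.4 and 35.2 RPKM and the kinase Prpf4b at 17.9, 16.5 and 19.2 RPKM. Prpf39, another U1-associated protein, had the most intron reads for its exon reads among members with under 10% shared windows, with shares of 83.6%, 84.3% and 82.1%. A snoRNA gene, Gm25970, lies inside it on the same strand and was not analysed here.

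Short members had the fewest reads. The 16 members with under 1000 exon bases (279 to 946) had a median of 59.5, 94 and 121 exon reads, against 459, 570 and 743 for the 43 longer ones. Under 50 exon reads were found in 7, 5 and 4 of the short members. At 12 h 3 of 15 short members tested rose and 1 fell, beside 3 of 42 longer ones that rose and 1 that fell, with medians of 0.33 and 0.35. At 6 h both members that rose were short. With genes of at least 1000 exon bases alone, none of 42 members had risen at 6 h and 3 had at 12 h, all of them SR genes (Srsf11, Srsf3 and Srsf7). Of all genes of that length, 0.328% rose and 0.138% fell at 6 h, and 3.18% rose and 5.50% fell at 12 h. Over genes of every length, 2.68% rose and 3.07% fell at 6 h, and 5.27% rose and 7.66% fell at 12 h. Short genes were thus called more often than longer ones in general, and their own share was not computed.

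Members whose coding windows mostly occur in another annotated transcript had, in their median, lower RPKM and higher intron shares than the rest. At least 50% of the coding windows occurred in another annotated gene in 11 members: Snrpg and Lsm7 (100%), Srsf3 (88.8%), Snrpf (81.6%), U2af1 (81.1%), Srsf10 (75.9%), Sf3b4 (75.04%), Snrpert (55.7%), Srsf5 (55.4%), Snrpd2 (51.9%) and Lsm12 (51.6%). Their median dormant level was 2.42 RPKM and their median intron share 78.7%, 72.3% and 58.6%. The 43 members with under 10% shared windows had a median of 18.2 RPKM and intron shares of 20.6%, 17.8% and 18.5%. The 11 ran from 0 to 17.7 RPKM in the dormant library. Above their median were Lsm12 (17.7 RPKM, intron share 19.0%), Snrpert (14.0 RPKM, 0%), Srsf5 (10.2 RPKM, 47.8%), Srsf3 (7.15 RPKM, 78.7%) and Snrpd2 (3.77 RPKM, 45.8%). Snrpert has no annotated intron. Intron reads outnumbered exon reads in 7 of the 11 and in 3 of the 43 in the dormant library. Among the 7 is Sf3b4, which less its snoRNA reads had 40 intron reads beside 52 exon reads. Whether reads with more than 1 match were dropped was not tested, and the untranslated exon bases of members other than Snrpert were not searched. For Srsf3, Snrpf, Snrpg, U2af1 and the others named, the level is therefore uncertain.

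**Figure D3:**
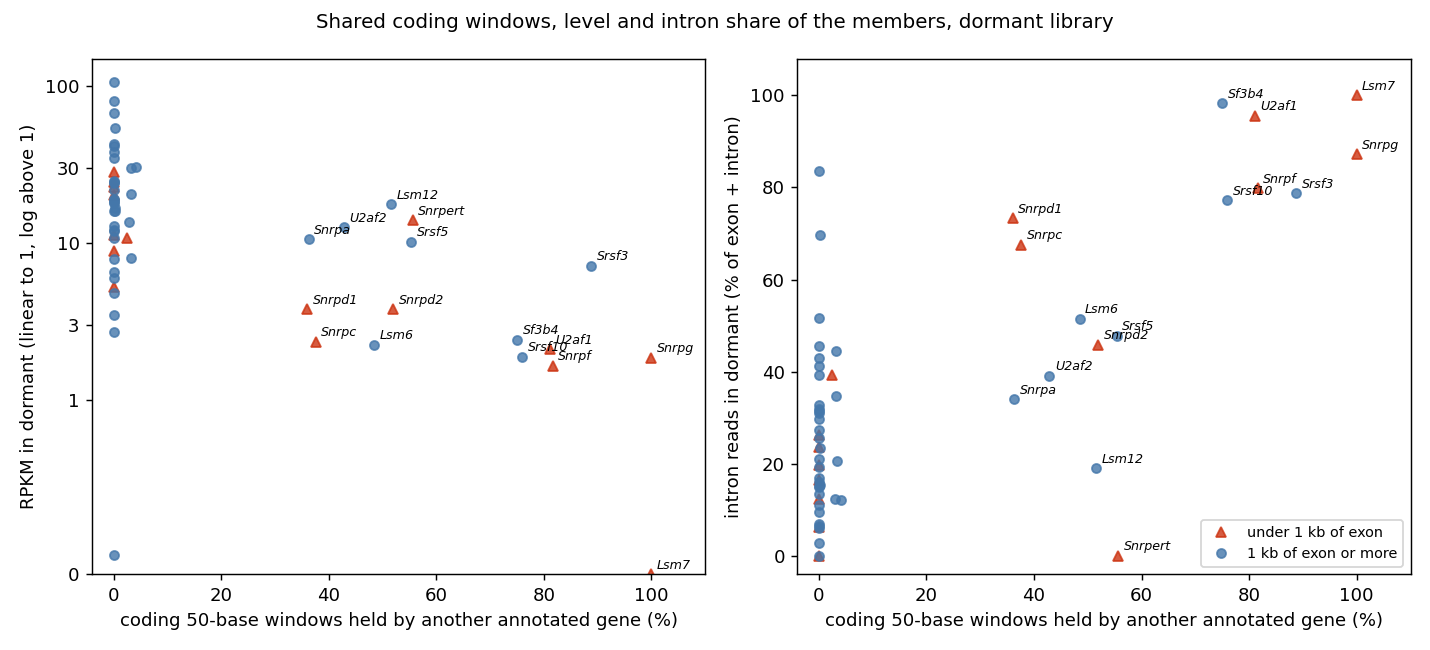
Share of the coding 50-base windows of each member that occur in another annotated gene (horizontal axis, %) against its RPKM (left, linear to 1 and logarithmic above) and its intron share (right, %) in the dormant library. Triangles are members with under 1000 exon bases and circles longer ones, and members with at least 10% are named. The 11 members at 50% or more lie at 17.7 RPKM or below, and Snrpert, which has no intron, at an intron share of 0%.

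Among the 43 members with under 10% shared windows (highest 4.14%), Lsm3, Srsf11 and Srsf7 rose at 12 h, Lsm14b fell, and the median difference was 0.32. Srsf7 shares 21 of 668 windows with Gm18821. At 6 h none of the 43 passed. Of 10 members tested in the class with at least 50% shared, Snrpf and Srsf3 rose and Snrpg fell, with a median of 0.46. Of the 5 members in between (Lsm6 48.5%, U2af2 42.9%, Snrpc 37.6%, Snrpa 36.3% and Snrpd1 36.0%), Snrpd1 rose.

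Few genes that act on or beside these proteins passed the size rule, and 3 of the lists had medians at 12 h against dormant near the members' 0.33, beside -0.07 for all genes. Of 39 other spliceosome proteins 2 rose at 12 h, beside 5.27% of all genes: the helicase Dhx15, which releases spent spliceosomes, from 41.4 to 87.3 RPKM, and the cyclophilin Ppih from 0.980 to 3.26 RPKM. The median of that list was 0.27, with 26 of 39 above 0. None of 18 hnRNP genes tested passed at 12 h against dormant, and their median was 0.39, with 14 of 18 above 0. Hnrnpf rose between 6 h and 12 h, from 4.32 to 9.72 RPKM, as 1 of 18 beside 3.82% of all genes. For 13 genes of the assembly of snRNPs, the particles of RNA and Sm proteins, the median was 0.41 with 12 of 13 above 0, and none passed in any comparison. None passed either among 16 kinases and relatives of SR proteins (median -0.12), 15 genes of nonsense-mediated decay and the exon junction complex (0.05) and 8 decapping genes (-0.18). The shift of the median is therefore not shown to be particular to the members. Ppih and the hnRNPs were not searched for copies.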

How the data were processed

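Per the labels' protocols, 1 library of pooled blastocysts was made for each of 3 states, and GRCm38 is named per the submitters' processing notes. Per the file headers, the authors deposited read counts per gene in exons, introns, exon junctions and on the opposite strand, and a deposited RPKM for each gene. For the aligner, counter, annotation release and handling of reads with several matches: not given in the sources used here. Each RPKM of the 59 members followed from its own exon reads and length.

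Members and lists were chosen with earlier results of these data known. Symbols and coordinates came from GENCODE M21 by Ensembl ID (26687 of 31510 IDs, 84.7%), and promoters from RefSeq on GRCm38.p6. Differences are log2((RPKM + 1)/(RPKM + 1)) over all genes. Named genes were those past the size rule (12 members over the 3 comparisons), the 10 highest and 10 lowest differences at 12 h with at least 5 RPKM, the leading members of each role, the extremes of intron share, all Srsf and Sm ring genes, short members and members at 0 reads. Other members are named after their values were seen. The values of 1 member are not reported here singly, though it is in all counts and medians. Intervals are exact Poisson for RPKM, exact binomial for ratios and Wilson for shares, at 95%. Scripts were tested on simulated data and run in Python 3.11.15 with pandas 2.3.3, numpy 2.4.6, scipy 1.17.1 and matplotlib 3.10.9. The alternatives tried were pseudocount, minimum level, scaling, CPM, exon length, read minimum, membership by deposited symbols, shared windows and subtraction of small RNA reads.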

Additional observations from a re-analysis of the deposited data

How the results depend on the processing

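No paired analysis was possible because each state is 1 library, and for the same reason no replicate could be left out. Among the 12 members that passed the size rule in a comparison, no call changed sign under the settings run for single members (pseudocount, median-ratio and upper-quartile scaling, CPM). For reactivating against dormant, 2 members were higher and 0 lower, and with a pseudocount of 0.1, 2 were lower. The higher count was 0 with genes of at least 1000 exon bases, 0 with members by deposited symbols and 0 with members under 10% shared windows. For reactivated against dormant, 6 were higher, and the count was 10 with a pseudocount of 0.1, 14 with upper-quartile scaling, 3 at 1000 exon bases, 1 by deposited symbols and 3 under 10% shared windows. The lower count of 2 became 1 at a minimum of 5 RPKM, 0 with median-ratio and 0 with upper-quartile scaling, 1 at 1000 exon bases, 0 by deposited symbols and 1 under 10% shared windows. The median of 0.33 was 0.56 with upper-quartile scaling. For reactivated against reactivating, the higher count of 5 became 3 at 5 RPKM, 9 with upper-quartile scaling, 3 at 1000 exon bases, 1 by deposited symbols and 2 under 10% shared windows. The lower count of 2 became 1 at 5 RPKM, 0 with median-ratio scaling, 0 with upper-quartile scaling and 0 by deposited symbols, and the median of 0.27 became 0.54 with upper-quartile scaling. Of the calls over all genes in that comparison 33.4% were higher, and 49.8% with median-ratio, 63.0% with upper-quartile scaling and 25.1% with CPM, while for reactivated against dormant CPM gave 31.5%. Members with a higher intron share at 12 h than in dormant went from 4 to 2 at 200 reads. Settings by deposited symbols, shared windows and small RNA reads were chosen after seeing the data. The setting by deposited symbols leaves out Snrpd1 and Snrpf only because their entries list another name first. At 5 RPKM the calls lost between 6 h and 12 h were Lsm6, U2af1 and Prpf40b, which stayed under it. A stricter minimum or a shorter list tests fewer members, and for other settings the cause was not tested. Depth limits Snrpg, Lsm7, Snrpc, Snrpd2, U2af1 and Srsf12, which had under 60 exon reads in each library.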
